A study of Homo sapiens with 12 samples.

Results

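The comparison set U87 cells that received sgPNA-10b and sgPNA-21 together against U87 cells left untreated. It used the 3 count columns labelled PNA-10b+21 and the 3 labelled Control, 6 of the 12 libraries of the series, and the columns were chosen by their labels alone. U87 is an established human glioblastoma cell line. The treated cells were given 150 nM sgPNA-10b and 150 nM sgPNA-21 in BNP, the bioadhesive nanoparticles of the study, and were left with them for 72 h; their genotype label is a knockdown of miR-10b and miR-21. The control cells received nothing, and neither empty particles nor a PNA without a target is among the groups described. The PNA-10b and PNA-21 groups, with 3 libraries each, received 1 of the sgPNAs at the same dose of 150 nM for 72 h, so the combined group carried the summed dose of both. All groups were the same cell line, and nothing in the labels says whether replicates came from separate cultures. The p-values weigh each difference only by how far libraries lay apart within groups, estimated over all 12 libraries and with spread shared between genes. The nanoparticles, the presence of any PNA and the 2 target sequences all differ between PNA-10b+21 and control and cannot be told apart in this contrast.

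A microRNA is a short RNA that an Argonaute protein carries to messenger RNAs whose 3′ untranslated region (UTR) pairs with the seed of the microRNA, bases 2 to 8 from its 5′ end. Bound messengers are translated less and degraded sooner, so blocking the microRNA can raise them. miR-21 is abundant in glioblastoma and is known for acting on growth-restraining and matrix-regulating genes. miR-10b lies in a HOX gene cluster and is nearly silent in normal brain but expressed in gliomas. A peptide nucleic acid (PNA) is a synthetic strand that pairs with RNA through ordinary bases carried on a backbone like that of a protein, and an anti-seed PNA covers the seed. The assay read polyadenylated messenger RNA, so the mature microRNAs themselves were not measured.

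The sequences below are the miR-21 strand at which sgPNA-21 is directed and matches to its seed in 3′ UTRs of genes that recur in the results. The mature strand hsa-miR-21-5p lies on chromosome 17 from 59841273 to 59841294 (plus strand, RefSeq, GRCh38.p14), and its seed is in capitals. hsa-miR-590-5p (chromosome 7, 74191213 to 74191234, plus strand) is shown because it carries the same seed.
hsa-miR-21-5p: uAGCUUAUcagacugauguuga
hsa-miR-590-5p: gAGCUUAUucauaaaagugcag
The messenger-side match to this seed is ATAAGCT, and an A after it makes the site an 8mer. The following stretches of the longest annotated 3′ UTR (GENCODE 29, hg38) have the 7 matching bases in capitals. They come from 3 genes that were higher and 4 that were lower in PNA-10b+21 than in control.
SPRY2 (chromosome 13, 80336516 to 80336522, minus strand): gacccatgtattgcATAAGCTaaagca
PELI1 (chromosome 2, 64094660 to 64094666, minus strand): tacattataaatttATAAGCTaagtga
CDC25A (chromosome 3, 48158199 to 48158205, minus strand): cttggctgcctgacATAAGCTaaatct
PDCD4 (chromosome 10, 110898330 to 110898336, plus strand): agtggaatattctaATAAGCTaccttt
TIMP3 (chromosome 22, 32860409 to 32860415, plus strand): acccacatggggacATAAGCTaatttt
SATB1 (chromosome 3, 18348277 to 18348283, minus strand): aagcaattcatactATAAGCTtcactc
IGFBP3 (chromosome 7, 45912956 to 45912962, minus strand): gcttatttctgaggATAAGCTctttaa
SPRY2, PELI1, CDC25A, PDCD4 and TIMP3 have an 8mer here, and the SATB1 and IGFBP3 matches are followed by another base.

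The 6 libraries held 12846676 to 17098686 counts, and 15715 genes passed the filter on low counts. Levels are given as CPM, counts scaled to library size with TMM factors, and fold changes as log2 values with the standard error (SE) of a quasi-likelihood fit in edgeR with 3 libraries a group. A gene is called changed where its p, adjusted by Benjamini and Hochberg's method over every gene tested, was under 0.05. Relative to control, PNA-10b+21 had 2131 genes higher (13.6%) and 2112 lower (13.4%), 27% of those tested in either direction. The libraries of the 2 groups did not overlap for 6306 genes (40.1%), and 4075 of the called genes were among them. The changes were small: the median size among called genes was 0.32 on the log2 scale, and the median over all genes was -0.00. At least 2-fold changes were unequal in direction, with 64 genes higher (0.407%) and 218 lower (1.39%). Of 751 long intergenic noncoding RNAs 29 were higher and 93 lower, and of 975 antisense genes 20 were higher and 101 lower. The 12277 protein-coding genes split into 2035 and 1782. In both noncoding classes the share lower was below the 13.4% of all genes, and the share higher was further below 13.6%. Their uneven split thus came from few rises and not from more falls. How strand was treated in the counting is not given in the sources used here, and antisense genes cannot be told apart from their partners. PNA-10b+21 replicate 1 carried the most weight in the totals: without it 1334 genes were higher and 1414 lower.

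**Figure D1:**
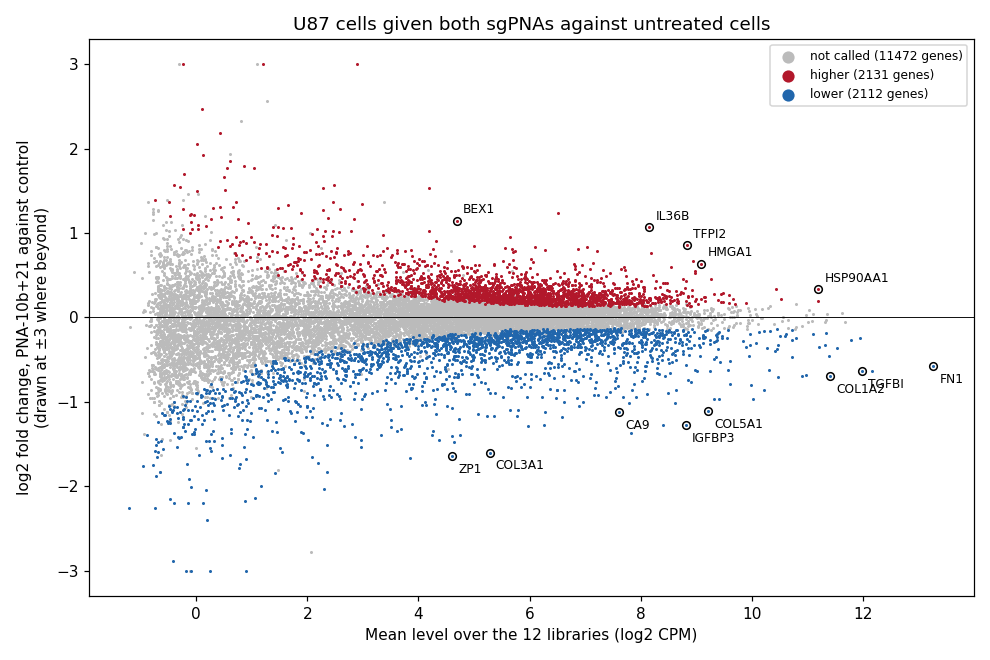
Fold change of every tested gene in PNA-10b+21 against control (y axis, log2) by its mean level over the 12 libraries (x axis, log2 CPM), with genes called higher in red, called lower in blue and not called in grey. Most called genes lie within 1 log2 unit of 0, and the most abundant of the labelled genes, FN1, TGFBI and COL1A2, lie below 0.

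The largest changes by fold were taken from called protein-coding genes with a mean of at least 4 log2 CPM and no overlap of libraries. Their lack of overlap therefore follows from the choice. Of the rises, that of BEX1, an X-linked adaptor gene first described in brain, was the largest. BEX1 stood at 16.2, 16.3 and 14.4 CPM in the control libraries and at 37.5, 37.3 and 29.5 CPM in the PNA-10b+21 libraries. All treated libraries lay above all controls, with PNA-10b+21 replicate 3 nearest to them, and the log2 fold change was 1.15 ± 0.10 (adjusted p = 9.91e-08). Next was IL36B, an epithelial cytokine of the interleukin-1 family on chromosome 2 (113022091 to 113052867, hg38). IL36B had 169, 175 and 164 CPM in control and 372, 371 and 319.9 CPM in PNA-10b+21, a rise of 1.07 ± 0.08 (adjusted p = 7.29e-09). The founding cytokine of that family, IL1B, was at 43.8, 46.8 and 44.1 CPM in control and 86.9, 83.1 and 70.1 CPM after both sgPNAs, or 0.83 ± 0.08. CSF3, the granulocyte growth factor G-CSF, went from 73.9, 97.4 and 63.2 CPM to 157, 134 and 125 CPM (0.82 ± 0.12), and its controls were uneven.

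Several of the other large rises encode enzymes. ODC1, which commits ornithine to polyamine synthesis, was at 87.01, 94.9 and 88.9 CPM in control and 174, 162 and 148 CPM in PNA-10b+21 (0.84 ± 0.08, adjusted p = 2.21e-07). PNP, which splits purine nucleosides in the salvage pathway, went from 13.5, 14.97 and 12.5 CPM to 29.4, 27.8 and 20.2 CPM (0.91 ± 0.13). The treated libraries for PNP spread more than the controls. CRYM, a thyroid hormone-binding ketimine reductase (0.83 ± 0.08), the lipase relative PNLIPRP3 (0.85 ± 0.12) and the acid phosphatase ACP7 (0.81 ± 0.07) also rose. So did C6orf223 (1.03 ± 0.10) and C6orf141 (0.95 ± 0.07). TFPI2, a secreted inhibitor of serine proteases, combined a large fold with a high level: 323, 334 and 303 CPM in control against 605, 638 and 489 CPM (0.85 ± 0.07). Its gene lies on chromosome 7 from 93885396 to 93890991. In added CPM, TFPI2 was joined by the chaperones HSP90AA1 (2114 ± 179.7 CPM in control and 2659 ± 184 CPM in PNA-10b+21; 0.33 ± 0.07) and HSPA8 (0.21 ± 0.06), the ferritin light chain FTL, the dynein heavy chain DYNC1H1 (0.19 ± 0.06) and the chromatin protein HMGA1 (0.64 ± 0.07). DYNC1H1 lost its call with control replicate 1 or 2 or PNA-10b+21 replicate 1, 2 or 3 left out and with upper-quartile scaling. HSPA8 lost its call with control replicate 2 or PNA-10b+21 replicate 1 or 2 left out.

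Of the falls among protein-coding genes taken by the same rule, the largest was in ZP1. ZP1, named for a glycoprotein of the egg coat, was at 39.4, 33.8 and 37.7 CPM in control and 9.45, 11.8 and 14.4 CPM in PNA-10b+21 (-1.64 ± 0.12, adjusted p = 8.48e-09). COL3A1, a fibrillar collagen chain on chromosome 2 (188974320 to 189012746), stood at 73.3, 64.6 and 101 CPM and then 17.8, 28.3 and 32.6 CPM (-1.60 ± 0.17). Its control libraries were uneven, with replicate 3 the highest. CCN4, a matricellular protein and Wnt target, went from 44.98, 37.7 and 50.8 CPM to 13.98, 17.2 and 16.5 CPM (-1.48 ± 0.11). ANGPT1, the ligand that activates the endothelial receptor TIE2, was at 34.7, 36.1 and 39.5 CPM and then 11.4, 14.7 and 14.3 CPM (-1.45 ± 0.10). CRABP2, which carries retinoic acid to the nucleus, had 39.8, 35.2 and 40.3 CPM in control and 13.4, 15.3 and 14.9 CPM in PNA-10b+21 (-1.40 ± 0.09) and its treated libraries lay close together.

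IGFBP3, which binds insulin-like growth factors, gave nearly identical controls at 621, 624 and 622 CPM and treated libraries at 257, 269.6 and 244 CPM. That gap of -1.28 ± 0.07 (adjusted p = 1.29e-10) is far wider than either group's spread. The gene lies on chromosome 7 from 45912245 to 45921874 (minus strand). The actin-binding protein SYNPO went from 472, 479 and 517 CPM to 174, 204 and 231 CPM (-1.27 ± 0.08), and TMEM45A, a membrane protein, from 92.8, 89.8 and 97.01 CPM to 31.97, 38.8 and 43.5 CPM (-1.29 ± 0.08). ANGPTL4, an inhibitor of lipoprotein lipase induced by low oxygen, showed the widest treated spread of the group: 6.36, 9.35 and 16.3 CPM against 28.3, 27.5 and 28.2 CPM in control (-1.40 ± 0.20). SCUBE3 (-1.39 ± 0.10), a secreted glycoprotein, the neurotrophic ligand ARTN (-1.34 ± 0.10) and the liprin PPFIA4 (-1.27 ± 0.14) completed the 12 largest falls. In CPM removed, the matrix led. FN1, fibronectin, was at 13254, 11322 and 14539 CPM in control and 8009.9, 9034 and 9227 CPM in PNA-10b+21 (-0.57 ± 0.08). After it came COL6A3 (5965 ± 538 CPM in control and 3850.0 ± 309.9 CPM in PNA-10b+21), TGFBI, COL1A2, the microfibril protein FBN1 and the glycolytic enzyme PGK1.

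**Figure D2:**
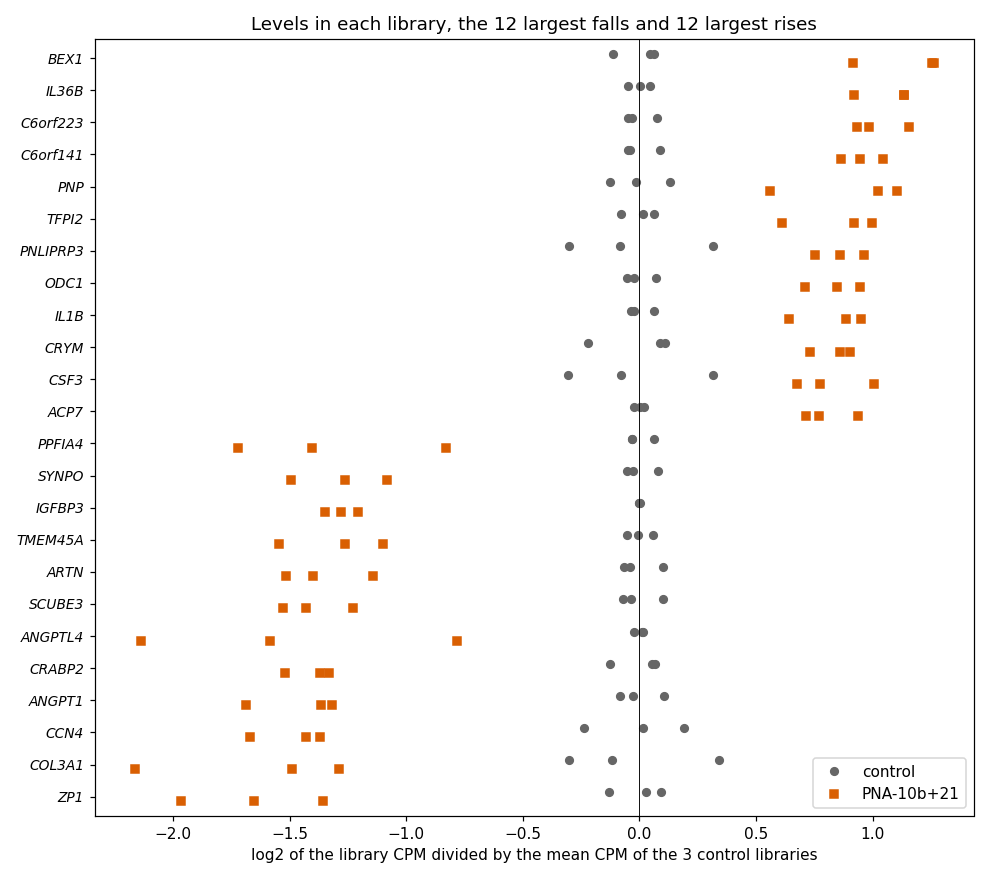
Level of the 12 largest rises and 12 largest falls in each control library (grey circles) and each PNA-10b+21 library (orange squares), as log2 of the library's CPM divided by the mean CPM of the 3 controls (x axis). For every gene the 3 treated libraries lie on 1 side of the 3 controls, which the choice of the genes requires; ANGPTL4 and COL3A1 have the widest treated ranges.

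The 62 gene lists described next were read against the background of 13.6% of genes higher and 13.4% lower, with a median of -0.00. Their members were chosen with earlier results of these data known, so the shares of lists and of their promoters are descriptions and not tests. Counts of at most 2 members moved by 1 gene in many lists when a library was left out and are not read further; larger counts that moved by over 1.5 times are given beside the list. Lists of proliferation, sterol enzymes, heat shock proteins and the proteasome lay on the higher side, and lists of matrix, hypoxia and complement on the lower side.

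**Figure D3:**
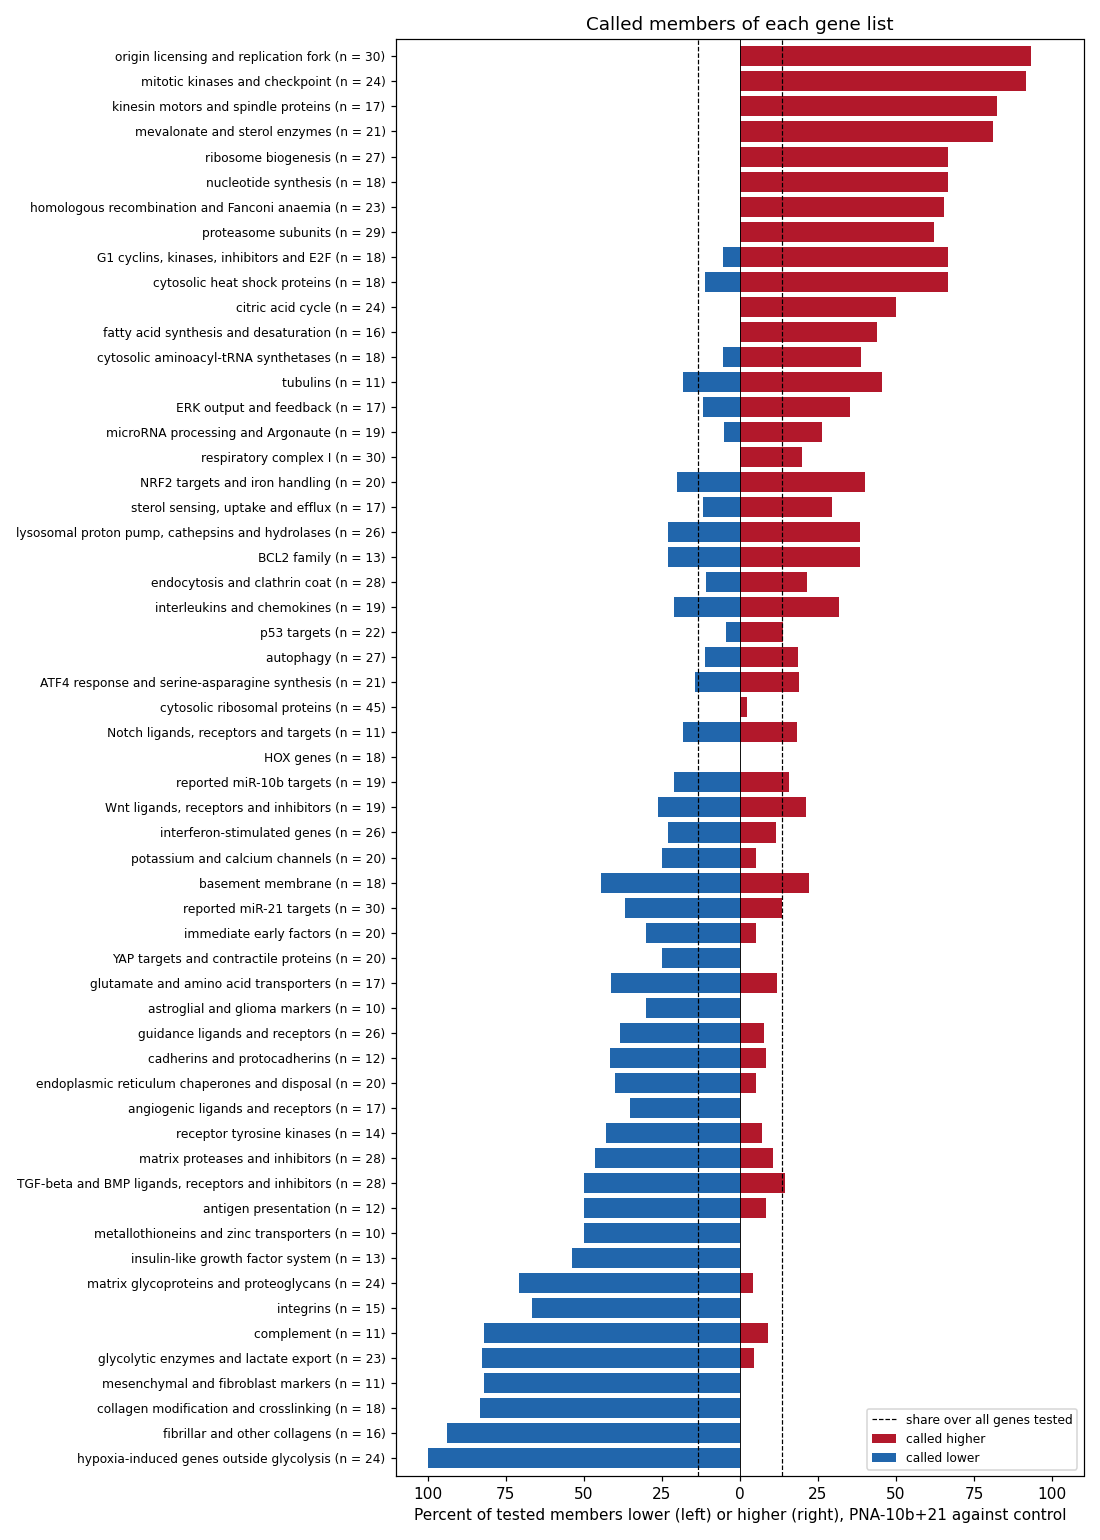
Percent of the tested members of each list called higher (red, to the right) or lower (blue, to the left) in PNA-10b+21 against control, for lists with at least 10 tested members, with the number tested in brackets. Dashed lines mark the shares over all genes tested, 13.6% higher and 13.4% lower. Origin licensing and mitotic kinases stand at the top and the hypoxia list at the bottom, where 24 of 24 members were lower.

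Most listed genes of the cell cycle were higher, whichever stage they serve. Of 18 G1 cyclins, kinases, inhibitors and E2F genes 12 rose and 1 fell (median 0.26), a count that does not separate drivers from inhibitors. E2F1, the transcription factor that opens S phase, was at 90.8, 90.98 and 79.3 CPM in control and 141, 124 and 124 CPM in PNA-10b+21 (0.57 ± 0.07), and the D-type cyclin CCND3 (0.46 ± 0.06) and its kinase CDK4 (0.31 ± 0.05) rose less. Of 30 genes for origin licensing and the replication fork 28 rose and 0 fell (median 0.36). The helicase subunit MCM3 was at 213, 221 and 208 CPM and then 305, 288 and 270.0 CPM (0.43 ± 0.06), with no overlap, and the clamp loader RFC3 (0.51 ± 0.07) and the polymerase subunit POLD1 (0.46 ± 0.06) moved by like amounts. The primase subunit PRIM1 was not called, at 0.18 ± 0.12. Among 18 genes of nucleotide synthesis 12 rose and 0 fell. RRM2, the inducible subunit of ribonucleotide reductase, went from 232, 243 and 228 CPM to 349.9, 334 and 310.4 CPM (0.50 ± 0.06), whereas PAICS of purine synthesis (-0.09 ± 0.05) did not pass. Repair by recombination followed, with 15 of 23 genes higher and 0 lower, among them the motor protein RAD54L (0.66 ± 0.08) and FANCD2 (0.35 ± 0.06), the protein monoubiquitinated in the Fanconi pathway.

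In mitosis, 22 of 24 kinase and checkpoint genes rose and 0 fell (median 0.41). The spindle-pole kinase AURKA was at 102, 113 and 103 CPM in control and 168, 163 and 143 CPM in PNA-10b+21 (0.58 ± 0.06, adjusted p = 8.84e-07). AURKB, its relative in the chromosomal passenger complex, went from 25.00, 27.5 and 23.00 CPM to 43.4, 39.2 and 33.7 CPM (0.62 ± 0.08). CCNB1, the cyclin that drives entry into mitosis, stood at 205, 198 and 191 CPM and then 284, 286 and 248 CPM (0.46 ± 0.06). For each of these 3 genes every treated library was above every control. WEE1, the kinase that holds CDK1 in check, was 0.06 ± 0.06 and was not called. Of 17 kinesins and spindle proteins 14 rose and 0 fell, with KIF18B at 0.59 ± 0.07 and the cytokinesis motor KIF23 at 0.41 ± 0.06, while KIF20A (0.10 ± 0.06) was not called. KIF20A passed the test with PNA-10b+21 replicate 3 left out.

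Because the mitotic genes moved together, their promoters were searched for CCAAT on either strand (ATTGG on the other), the box bound by NF-Y. In the RefSeq windows of 300 bases, from 250 before to 50 after the start, it was present in 13 of the 17 mitotic kinase and checkpoint genes with a promoter in the table (76.5%) and in 36.4% of the 10406 promoters of tested genes. A match of letters is a description and shows no binding. The CCNB1 window (chromosome 5, 69166900 to 69167199, plus strand, GRCh38.p14) holds 2, shown in capitals.
CCNB1: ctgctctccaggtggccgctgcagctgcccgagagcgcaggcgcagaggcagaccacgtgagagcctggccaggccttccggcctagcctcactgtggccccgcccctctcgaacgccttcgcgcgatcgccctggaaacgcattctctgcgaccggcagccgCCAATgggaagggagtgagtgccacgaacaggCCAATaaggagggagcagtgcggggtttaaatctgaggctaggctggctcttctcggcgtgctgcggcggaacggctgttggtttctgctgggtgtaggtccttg

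Genes of sugar breakdown and of the response to low oxygen were lower. Of 23 glycolytic genes 19 fell and 1 rose (median -0.37). PGK1, which makes the first ATP of glycolysis, was at 2463, 2225 and 2502 CPM in control and 1369, 1516 and 1556 CPM in PNA-10b+21 (-0.70 ± 0.07). PFKFB4, which sets the level of the allosteric activator of phosphofructokinase, fell more, from 287, 277 and 288 CPM to 114, 150.3 and 178 CPM (-0.95 ± 0.11), with replicate 1 the lowest of the treated libraries. The phosphofructokinase subunit PFKL (-0.50 ± 0.05) and the aldolase ALDOC (-0.85 ± 0.06) fell too, but the hexokinase HK1 (0.03 ± 0.05) and the glucose transporter SLC2A3 (-0.02 ± 0.06) were not called. All 24 tested hypoxia genes outside glycolysis fell (median -0.73). CA9, the surface carbonic anhydrase used as a hypoxia marker, stood at 287, 269 and 262 CPM in control and 107, 130.0 and 141 CPM after both sgPNAs (-1.12 ± 0.08). Its relative CA12 went from 972, 958 and 1074 CPM to 525, 604 and 608 CPM (-0.79 ± 0.06), the mitochondrial protein FAM162A from 159, 153 and 161 CPM to 72.7, 86.9 and 85.5 CPM (-0.95 ± 0.07). P4HA1, a collagen prolyl hydroxylase subunit, was at -0.91 ± 0.07. PNA-10b+21 replicate 1 was the lowest library for each of these 4 genes. Oxygen and cell density are not recorded for the groups, and culture time is not recorded for control. The part of these conditions in the falls was not tested.

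The same kind of window was searched for ACGTG, and on the other strand for its complement CACGT. These letters are the core of the element bound by hypoxia-inducible factors. They were present in 12 of 19 promoters of the hypoxia list (63.2%) and in 26.8% of the 10406. The CA9 window (chromosome 9, 35673678 to 35673977, plus strand, GRCh38.p14) has a single match, which begins 18 bases before the start and is in capitals.
CA9: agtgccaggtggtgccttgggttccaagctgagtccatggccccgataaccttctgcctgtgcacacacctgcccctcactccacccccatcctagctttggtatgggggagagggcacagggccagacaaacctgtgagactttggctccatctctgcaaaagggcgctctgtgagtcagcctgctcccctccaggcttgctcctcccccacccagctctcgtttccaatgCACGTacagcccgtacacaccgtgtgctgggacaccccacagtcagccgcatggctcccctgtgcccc

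Genes of the citric acid cycle were higher or not called, and those of respiratory complex I stayed near the background. Of 24 citric acid cycle genes 12 rose and 0 fell (median 0.17), among them citrate synthase CS (0.24 ± 0.05) and fumarase FH (0.32 ± 0.06). FH was at 96.1, 94.2 and 97.01 CPM in control and 122, 126 and 109 CPM in PNA-10b+21, without overlap. Respiratory complex I had 6 of 30 subunits higher and 0 lower, with NDUFS8 at 0.25 ± 0.05, against 13.6% of all genes. In the pentose phosphate pathway 4 of 8 genes rose and 1 fell: the transketolase TKT (0.22 ± 0.05), PGD (0.24 ± 0.05) and RPIA (0.33 ± 0.10) were higher and the lumenal enzyme H6PD (-0.29 ± 0.05) lower. For the pentose pathway, the 4 higher became 2 with control replicate 3 or PNA-10b+21 replicate 1 left out. RPIA lost its call with control replicate 3 or PNA-10b+21 replicate 1 left out.

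Cholesterol synthesis rose along most of its length. Of 21 enzymes from acetyl-CoA to cholesterol 17 were higher and 0 lower (median 0.41). FDFT1, which joins 2 farnesyl units to squalene, was at 172, 164 and 168 CPM in control and 236, 232 and 243 CPM in PNA-10b+21 (0.50 ± 0.05). DHCR7, a late reductase of the pathway, stood at 0.53 ± 0.05. LSS, which closes the sterol ring, was at 26.3, 21.04 and 24.9 CPM in control and 51.3, 24.8 and 24.7 CPM in PNA-10b+21 and was not called, replicate 1 alone of the treated libraries being far above the others. LSS passed the test with PNA-10b+21 replicate 2 or 3 left out and without the filter on low counts. Genes that sense or move sterols divided, with 5 of 17 higher and 2 lower. INSIG1, which holds the sterol sensor in the endoplasmic reticulum (0.55 ± 0.06) and the lysosomal exporter NPC1 (0.46 ± 0.05) rose, and the receptor LRP1 fell from 2974, 2861 and 3069 CPM to 2312, 2332 and 2480.1 CPM (-0.32 ± 0.05). The exporter ABCA1 was -0.05 ± 0.06 and not called. In fatty acid synthesis 7 of 16 rose and 0 fell: FASN, the synthase itself, went from 383, 356 and 370.0 CPM to 601, 550.2 and 611 CPM (0.67 ± 0.05), but ACLY (0.05 ± 0.06) and the desaturase SCD (-0.03 ± 0.07) did not pass. For fatty acid synthesis, the 7 higher became 4 with control replicate 2 left out. The letters TCACNCCAC (GTGGNGTGA on the other strand), a form of the sterol regulatory element, were in 0 of 16 promoter windows of the enzymes and in 1.09% of all windows, which says only that these letters are not there.

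Genes of the extracellular matrix were lower in most of their lists. Of 16 collagen genes 15 were lower and 0 higher (median -0.66). COL5A1, which nucleates fibrils and lies on chromosome 9 from 134641774 to 134844843, was at 866, 862 and 977 CPM in control and 371, 406 and 473 CPM in PNA-10b+21 (-1.11 ± 0.07, adjusted p = 3.55e-09). COL1A1, the main chain of type I collagen, went from 1787, 1607 and 1726 CPM to 869.7, 916 and 1039.7 CPM (-0.86 ± 0.07), and its partner COL1A2 from 3880.0, 3319.8 and 3968 CPM to 2082, 2286 and 2514 CPM (-0.70 ± 0.07). Both groups were tight beside these gaps, and no libraries overlapped. COL7A1, the anchoring fibril (-0.76 ± 0.07), and COL8A1 (-0.64 ± 0.07) fell, while COL5A3 (-0.22 ± 0.14) was not called. Of 18 genes that modify and crosslink collagen 15 fell and 0 rose. The lysyl hydroxylase PLOD2 stood at 1419.8, 1365 and 1552 CPM and then 632, 749.6 and 835 CPM (-0.97 ± 0.08), and the lysyl oxidases LOXL2 (-0.80 ± 0.06) and LOXL3 (-0.89 ± 0.06) were lower as well. The collagen chaperone partner CRTAP (-0.07 ± 0.05) did not pass.

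Among 24 matrix glycoproteins and proteoglycans 17 fell and 1 rose. SPARC, which binds collagen and calcium, went from 1728, 1498 and 1742 CPM to 1013, 1064 and 1146 CPM (-0.62 ± 0.06), and the heparan sulphate carrier SDC2 was at -0.71 ± 0.06, whereas GPC1 was -0.08 ± 0.05 and not called. The basement membrane list was mixed, with 8 of 18 lower and 4 higher: perlecan HSPG2 (-0.58 ± 0.07) and the laminin chain LAMA5 (-0.79 ± 0.10) fell, and LAMA1 rose from 18.03, 19.4 and 18.5 CPM to 26.4, 26.8 and 25.2 CPM (0.49 ± 0.08). Of 15 integrins 10 fell and 0 rose. ITGA11, a collagen receptor, was at 37.5, 29.2 and 40.9 CPM in control and 13.4, 14.8 and 20.2 CPM in PNA-10b+21 (-1.15 ± 0.14), and ITGAV of the vitronectin receptors was at -0.45 ± 0.06. ITGA3, the laminin receptor chain, at -0.05 ± 0.06, and ITGA2, at 0.04 ± 0.06, were not called. Matrix proteases and their inhibitors had 13 of 28 lower and 3 higher. The inhibitor TIMP3 went from 67.7, 63.2 and 71.1 CPM to 36.4, 39.9 and 37.99 CPM (-0.82 ± 0.07) and the proteases ADAM19 (-0.83 ± 0.09), ADAM12 (-0.45 ± 0.05) and PLAT (-0.77 ± 0.09) fell, but the membrane collagenase MMP14 (0.05 ± 0.05) did not pass. For the proteases, the 3 higher became 1 with control replicate 2 or PNA-10b+21 replicate 1 left out.

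Ligands and receptors for growth signals were more often lower than higher. In the angiogenic list 6 of 17 fell and 0 rose. ANGPT2, the context-dependent partner of ANGPT1, was low throughout, at 4.63, 4.42 and 4.68 CPM in control and 0.745, 1.42 and 1.32 CPM in PNA-10b+21 (-1.99 ± 0.23). The peptide APLN went from 106, 104 and 107 CPM to 39.8, 46.7 and 60.02 CPM (-1.12 ± 0.11), without overlap, and PDGFC was at -0.47 ± 0.06. VEGFB (0.02 ± 0.05) was not called. Of 14 receptor tyrosine kinases 6 fell and 1 rose. PDGFRB went from 163, 137 and 170.3 CPM to 81.5, 95.4 and 105 CPM (-0.74 ± 0.08), PDGFRA, scarce in these cells, was at -0.90 ± 0.18, and TYRO3 rose (0.29 ± 0.06), while the hepatocyte growth factor receptor MET (-0.02 ± 0.05) and AXL (-0.11 ± 0.06) did not pass. The insulin-like growth factor system had 7 of 13 lower and 0 higher: beside IGFBP3 these included IGFBP5 (17.6, 15.7 and 22.4 CPM against 7.16, 8.001 and 7.35 CPM; -1.30 ± 0.12), IGFBP1 (-0.69 ± 0.10) and PAPPA (-0.31 ± 0.07), the protease that cleaves binding proteins. The receptor IGF2R was 0.04 ± 0.05 and was not called. For receptor kinases, the 6 lower became 3 with PNA-10b+21 replicate 1 left out.

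In the TGF-β and BMP list 14 of 28 fell and 4 rose. TGFBI, a matrix protein named for its induction by TGF-β, was at 5368, 4658 and 5563 CPM in control and 3080.1, 3528 and 3423 CPM in PNA-10b+21 (-0.64 ± 0.07). The latent-complex binder LTBP3 (-0.54 ± 0.06), the follistatin relative FSTL1 (-0.64 ± 0.06) and BMPER (-0.68 ± 0.07) fell, but SMAD3 (-0.06 ± 0.06) did not pass. Wnt genes went both ways, with 4 of 19 higher and 5 lower. The ligand WNT5A fell from 416, 449.9 and 406 CPM to 281, 289 and 333 CPM (-0.49 ± 0.07), and the receptor FZD1 was at -0.59 ± 0.08. The inhibitor DKK1, at 5.77, 5.30 and 5.57 CPM and then 8.65, 9.56 and 9.67 CPM, rose (0.74 ± 0.12), as did FZD8 (0.97 ± 0.17). Of 11 Notch genes 2 rose and 2 fell, with NOTCH1 at 0.38 ± 0.08, NOTCH3 at -0.22 ± 0.06 and the fringe enzymes MFNG at 0.91 ± 0.27 and LFNG at -1.12 ± 0.17, and the abundant NOTCH2 was not called (0.12 ± 0.05). For TGF-β and BMP genes, the 4 higher became 2 with control replicate 3 left out. In Wnt genes, the 4 higher became 2 with PNA-10b+21 replicate 1 or 2 left out. For Wnt genes, the 5 lower became 3 with PNA-10b+21 replicate 1 left out. MFNG lost its call with control replicate 1 or PNA-10b+21 replicate 1 left out and under DESeq2.

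Outputs of the ERK pathway and immediate early genes, both used as readings of growth signalling, did not move alike. Of 17 ERK output and feedback genes 6 rose and 2 fell. The AP-1 subunit FOSL1 went from 412, 414 and 373 CPM to 617, 576 and 538 CPM (0.53 ± 0.07), and the feedback inhibitor SPRY2 from 142, 135 and 128 CPM to 198, 189 and 184 CPM (0.49 ± 0.06). ETV4 (0.59 ± 0.08) and the phosphatase DUSP5 (0.49 ± 0.08) rose too, while PHLDA1 (0.04 ± 0.07) was not called. Of 20 immediate early factors 6 fell and 1 rose. FOS was at 161, 129 and 179 CPM in control and 66.9, 85.3 and 81.2 CPM in PNA-10b+21 (-1.01 ± 0.14), and FOSB at 34.9, 25.8 and 40.8 CPM and then 15.7, 16.00 and 17.9 CPM (-1.02 ± 0.17). EGR2 fell (-0.66 ± 0.09), but JUN (-0.00 ± 0.05) and EGR1 (0.10 ± 0.09) were not called. In the list of YAP targets and contractile proteins 5 of 20 fell and 0 rose, with the actin-binding proteins TPM1 (-0.46 ± 0.06), CNN2 (-0.36 ± 0.05), CALD1 (-0.27 ± 0.06) and TPM2 (-0.23 ± 0.07) among them. The filamin FLNA (-0.06 ± 0.06) and the myosin MYH9 (0.04 ± 0.06) did not pass. For contractile genes, the 5 lower became 3 with PNA-10b+21 replicate 1 left out. TPM2 lost its call with PNA-10b+21 replicate 1 left out.

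At the cell surface, 10 of 26 guidance genes fell and 2 rose. SEMA5A, a membrane semaphorin, went from 102, 99.7 and 115 CPM to 52.4, 53.2 and 58.6 CPM (-0.95 ± 0.06), and the receptor PLXND1 was at -0.79 ± 0.11, whereas SEMA7A (0.10 ± 0.06) was not called. Of 12 cadherins 5 fell and 1 rose: N-cadherin CDH2 was at -0.25 ± 0.06, FAT4 at -0.50 ± 0.07 and PCDH9, the riser, at 0.35 ± 0.07. Of 20 potassium and calcium channels 5 fell and 1 rose, with the L-type calcium channel CACNA1C going from 71.1, 75.7 and 81.6 CPM to 52.9, 55.1 and 59.6 CPM (-0.45 ± 0.06) and KCNE4 at -0.66 ± 0.13. The large-conductance channel KCNMA1 did not pass (-0.08 ± 0.05). Among 17 glutamate and amino acid transporters 7 fell and 2 rose. SLC1A3, the glial glutamate transporter, was at 92.6, 80.96 and 101 CPM in control and 41.2, 49.7 and 51.5 CPM in PNA-10b+21 (-0.95 ± 0.09), and the taurine transporter SLC6A6 at 553, 509.5 and 622 CPM and then 289, 315 and 325 CPM (-0.86 ± 0.07). SLC1A5, which carries glutamine, was -0.05 ± 0.07 and not called. For guidance genes, the 2 higher became 0 with control replicate 1 or PNA-10b+21 replicate 1 left out. In channels, the 5 lower became 3 at a minimum count of 50.

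Stress programs differed in direction. The heat shock list, which holds a mitochondrial chaperonin beside cytosolic members, had 12 of 18 higher and 2 lower. The HSP110-type exchange factors HSPA4 (290.4, 287 and 306 CPM against 401, 414 and 361 CPM; 0.41 ± 0.06) and HSPH1 (0.35 ± 0.06) and the mitochondrial chaperonin HSPD1 (0.29 ± 0.05) rose, DNAJB4 fell (-0.47 ± 0.07) and DNAJA1 (0.06 ± 0.06) was not called. Chaperones and disposal genes of the endoplasmic reticulum went the other way, with 8 of 20 lower and 1 higher. ERO1A, an oxidase of disulphide bond formation, was at 224, 249 and 221 CPM in control and 142, 155 and 179 CPM in PNA-10b+21 (-0.54 ± 0.08). HERPUD1 was at -0.32 ± 0.05 and calnexin CANX, not called, at -0.08 ± 0.05. The ATF4 list had 4 of 21 higher and 3 lower, near the background, with ATF4 itself at -0.01 ± 0.05 and not called. VLDLR (-0.60 ± 0.08) fell and the serine enzyme SHMT2 (0.23 ± 0.06) rose. Of 20 NRF2 targets and iron genes 8 rose and 4 fell. HMOX1, the heme-degrading oxygenase, stood at 306, 282 and 285 CPM and then 485, 495 and 337 CPM (0.59 ± 0.11), replicate 3 being nearest to the controls, and FTL at 0.33 ± 0.06. The exporter ABCC3 fell from 88.3, 77.4 and 92.2 CPM to 33.6, 38.8 and 42.4 CPM (-1.17 ± 0.08). Of 10 metallothionein and zinc transporter genes 5 fell and 0 rose, among them MT3, at 4.36, 4.36 and 3.31 CPM and then 0.974, 1.77 and 1.32 CPM (-1.59 ± 0.22), while MT2A, the most abundant of them, was not called (-0.04 ± 0.07). Reads of metallothionein copies can be split between near-identical genes. For the ATF4 list, the 4 higher became 2 with control replicate 1 or 3 or PNA-10b+21 replicate 1 left out.

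Targets of p53 stayed near the background, and the BCL2 family, which governs apoptosis, had called genes in both directions. Of 22 p53 targets 3 rose and 1 fell, close to the background share. AEN was at 72.4, 70.4 and 69.5 CPM in control and 96.95, 91.1 and 85.2 CPM in PNA-10b+21 (0.36 ± 0.07), BAX at 0.24 ± 0.06 and GADD45A at 0.25 ± 0.06, while the death receptor TNFRSF10B (-0.01 ± 0.05) did not pass. The BCL2 family had 5 of 13 higher and 3 lower. The survival protein BCL2L1 (0.27 ± 0.06) and the pro-apoptotic PMAIP1 (19.2, 20.1 and 18.9 CPM against 23.5, 23.4 and 29.3 CPM; 0.39 ± 0.09) both rose, and BID fell (-0.34 ± 0.06). BAD was not called (0.03 ± 0.09). For the BCL2 list, the 5 higher became 3 with control replicate 3 left out and under DESeq2 and 2 with PNA-10b+21 replicate 1 left out.

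Inflammatory and immune genes did not move as a block. Of 19 interleukins, chemokines and related genes 6 rose and 4 fell. Beside IL1B, LIF, a cytokine of the IL-6 family, rose from 45.5, 51.3 and 39.5 CPM to 80.3, 67.7 and 72.3 CPM (0.69 ± 0.08). IL6 itself fell, from 29.03, 32.3 and 28.6 CPM to 14.6, 16.00 and 18.96 CPM (-0.87 ± 0.10), and the adhesion receptor ICAM1 was at -0.83 ± 0.09. CSF1 was not called (0.00 ± 0.07). Of 26 interferon-stimulated genes 3 rose and 6 fell, with IFIT1 at 11.1, 9.49 and 11.3 CPM and then 5.27, 5.66 and 5.27 CPM (-0.97 ± 0.13) and IFI44L at 0.27 ± 0.06. Complement was more uniform, with 9 of 11 genes lower and 1 higher (median -0.43). The C1 proteases C1R (193, 171 and 183 CPM against 100, 116 and 116 CPM; -0.72 ± 0.06) and C1S (-0.62 ± 0.07) and the central component C3 (652, 636 and 699 CPM against 443, 492 and 517 CPM; -0.45 ± 0.06) fell, and C5 (0.08 ± 0.10) did not pass. In antigen presentation 6 of 12 tested genes fell and 1 rose. CD74, the invariant chain of class II, went from 443, 387 and 422 CPM to 278, 298 and 306 CPM (-0.50 ± 0.06), and the trimming peptidase ERAP2 was at -0.44 ± 0.05. RPS18, TUBB and NEU1, which cells generally use and which lie in the histocompatibility region of chromosome 6, were listed at 0 in every control and PNA-10b+21 library. The antigen presentation members TAP1, PSMB8, PSMB9 and MICB had no match in the count table, so the list counts leave them out. The same holds for CCL5 and TNF of the interleukin list, CFB and CFD of complement, and HSPA1A and HSPA1B of the heat shock list. Why these genes are missing was not tested. HLA-DRA, picked after its values were seen, was called lower on an uneven control of 5.58 ± 7.96 CPM (SD, n = 3). For interleukins and chemokines, the 6 higher became 10 with control replicate 2 left out. In interferon genes, the 3 higher became 1 with PNA-10b+21 replicate 1 left out. For complement, the 9 lower became 5 with control replicate 1 or PNA-10b+21 replicate 1 left out.

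In the lysosome 10 of 26 genes rose and 6 fell. ATP6V0D2, a subunit isoform of the proton pump, rose from 2.28, 2.89 and 1.45 CPM to 7.39, 5.95 and 6.72 CPM (1.56 ± 0.22). The pump subunit ATP6V1B2 (0.32 ± 0.06) and the protease CTSL (0.33 ± 0.06) rose, CTSA fell (-0.32 ± 0.05) and the hydrolase TPP1 was not called (-0.05 ± 0.05). Autophagy had 5 of 27 higher and 3 lower, near the background of 13.6% and 13.4%. The receptor SQSTM1 was at 0.28 ± 0.05, the lipid transporter ATG2A at 0.46 ± 0.06 and the initiating kinase ULK1 at -0.28 ± 0.06. MAP1LC3B, which marks autophagosomes, was -0.02 ± 0.05 and not called. Endocytosis genes, with 6 of 28 higher and 3 lower, were also near the background. Clathrin light chain CLTA was at 0.29 ± 0.05, while caveolin CAV1 fell from 1157, 1109.7 and 1157 CPM to 751, 829 and 907 CPM (-0.46 ± 0.06). The heavy chain CLTC (0.06 ± 0.05) did not pass. Of 11 tubulins 5 rose and 2 fell, with the centrosomal TUBG1 at 0.41 ± 0.06 and TUBA1A at -0.30 ± 0.06. For lysosomal genes, the 6 lower became 3 with PNA-10b+21 replicate 1 left out. In autophagy, the 5 higher became 3 with PNA-10b+21 replicate 1 left out.

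The machinery of protein synthesis and turnover separated by part. Of 45 cytosolic ribosomal proteins 1, RPL13, rose (0.15 ± 0.05) and 0 fell in edgeR. RPL4 (0.09 ± 0.06) and RPLP0 (0.04 ± 0.06) were not called. Ribosome biogenesis had 18 of 27 genes higher and 0 lower. NOP56, a core protein of the small nucleolar particles, went from 55.2, 58.2 and 58.7 CPM to 78.8, 84.05 and 68.1 CPM (0.42 ± 0.07), and RRP9 was at 0.54 ± 0.07. Of 29 proteasome subunits 18 rose and 0 fell, by amounts such as 0.30 ± 0.06 for the deubiquitinating subunit PSMD14 and 0.32 ± 0.06 for PSMD8, while PSMB1 (0.10 ± 0.05) did not pass. Of 18 cytosolic aminoacyl-tRNA synthetases 7 rose and 1 fell, with FARSB at 0.28 ± 0.06 and DARS, the faller, at -0.24 ± 0.06. For proteasome genes, the 18 higher became 9 with control replicate 2 left out, 11 with PNA-10b+21 replicate 1 left out and 10 with PNA-10b+21 replicate 2 left out. In synthetases, the 7 higher became 3 with PNA-10b+21 replicate 1 left out and 4 with PNA-10b+21 replicate 2 left out. RPL13 lost its call with control replicate 2 or 3 or PNA-10b+21 replicate 1 or 2 left out and with upper-quartile scaling.

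Transcripts with a miR-21 seed match were compared with the rest over the 12237 tested genes with an annotated 3′ UTR. A match here is ATAAGCT, alone or as an 8mer, and other forms of seed pairing were not searched. Of 1269 genes with this match 13.9% were higher and 15.3% lower. Of 10968 without it 16.9% were higher and 14.4% lower. The medians were -0.00 and 0.02, so genes with a match stood 0.02 lower on the log2 scale. Against the same controls the order was the other way in the single groups, with medians of 0.03 with a match and 0.01 without in PNA-21 and 0.02 and -0.00 in PNA-10b. None of these differences in medians was tested. The 364 genes with an 8mer had 51 higher and 56 lower, and the 170 with at least 2 matches had 16 higher and 32 lower, with a median of -0.05. UTR length went with the classes, since the median was 3342 bases with a match, 5386 with at least 2 and 1248 without, and its part in the differences was not tested. The miR-10b seed was not searched.

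Genes reported as miR-21 targets in the literature went in both directions. Of 30 tested, 4 rose and 11 fell (median -0.09), against 13.6% and 13.4% of all genes. SPRY2, whose 8mer is printed above, rose as given with the ERK genes. The ubiquitin ligase PELI1 stood at 2.41, 3.59 and 3.07 CPM in control and 5.27, 4.53 and 5.46 CPM in PNA-10b+21 (0.75 ± 0.17), and the phosphatase CDC25A at 11.5, 13.4 and 12.3 CPM and then 22.3, 20.3 and 16.6 CPM (0.66 ± 0.11). PDCD4, a translation inhibitor whose site is among the best known for miR-21, was at 34.5, 37.5 and 40.7 CPM in control and 29.9, 28.9 and 31.7 CPM in PNA-10b+21. Its libraries did not overlap and it fell (-0.31 ± 0.07, adjusted p = 0.00282). SATB1, a chromatin organiser, went from 62.6, 57.6 and 60.7 CPM to 38.5, 40.9 and 45.7 CPM (-0.53 ± 0.07), TIMP3 and IGFBP3 fell as given with the matrix and growth factor genes, and the receptor TGFBR2 (-0.25 ± 0.05), the signalling inhibitor SMAD7 (-0.57 ± 0.13), TPM1, LRRFIP1 (-0.42 ± 0.06), RASA1 (-0.15 ± 0.05) and SPRY1 (-0.63 ± 0.22) were among the other falls. RASA1 lost its call with control replicate 2 or PNA-10b+21 replicate 1 or 2 left out and without the filter on low counts. SPRY1 lost its call with control replicate 1, 2 or 3 or PNA-10b+21 replicate 1 or 2 left out and under DESeq2. Of the 15 not called, RECK was at -0.15 ± 0.07, JAG1 at -0.17 ± 0.08, APAF1 at -0.02 ± 0.10, TP53BP2 at 0.09 ± 0.07 and HNRNPK at -0.01 ± 0.05. RECK passed the test with control replicate 1 left out. JAG1 passed the test with control replicate 2 or PNA-10b+21 replicate 3 left out. The 95% interval of the HNRNPK change ran from -0.11 to 0.09, which leaves room only for a small shift, whereas that of DAXX ran from -0.87 to 1.58 at under 1 CPM. Of the 20 targets with a match 3 rose and 7 fell, and of the 10 without 1 rose and 4 fell.

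**Figure D4:**
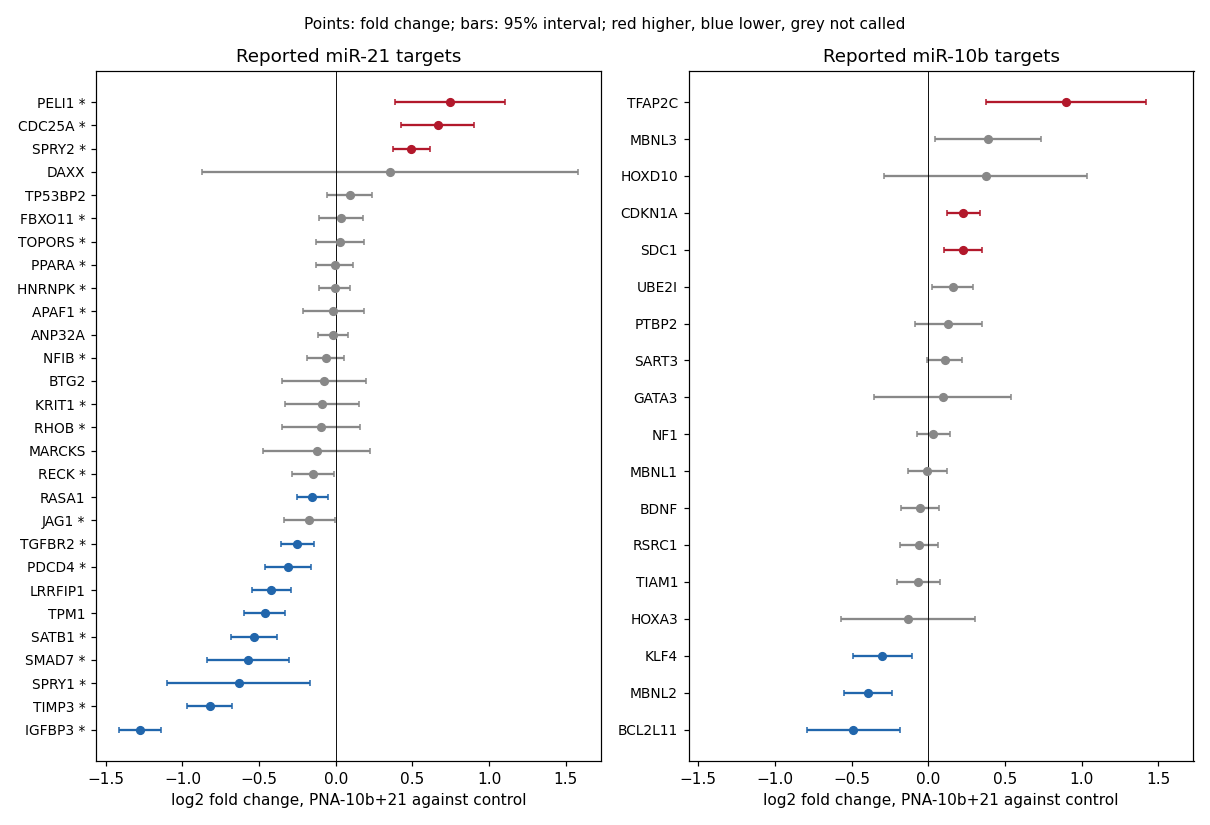
log2 fold change in PNA-10b+21 against control (x axis) for 28 of the tested genes reported as miR-21 targets (left) and 18 of those reported as miR-10b targets (right), with bars for the 95% interval of the fit; red points were called higher, blue lower and grey not called, and an asterisk marks genes with a miR-21 seed match. PELI1, CDC25A and SPRY2 lie above 0 among the called miR-21 targets shown, and 10 lie below.

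Reported miR-10b targets stayed near the background, with 3 of 19 higher and 4 lower (median 0.03). CDKN1A, the p21 inhibitor of cyclin kinases, went from 284, 253 and 259.6 CPM to 319, 303 and 309 CPM (0.23 ± 0.05), the syndecan SDC1 was at 0.23 ± 0.06 and TFAP2C, near 1 CPM in control, at 0.90 ± 0.25. The splicing factor MBNL2 (-0.39 ± 0.07), KLF4 (-0.30 ± 0.09) and the pro-apoptotic BCL2L11 (-0.49 ± 0.15) fell. HOXD10, the target most often named for miR-10b, was at 0.804, 0.589 and 0.646 CPM in control and 0.917, 0.708 and 1.005 CPM in PNA-10b+21. The groups overlapped, and the 95% interval of its log2 change, -0.29 to 1.04, includes both a fall and a rise of about 2-fold. NF1 was 0.03 ± 0.05, TIAM1 -0.07 ± 0.07 and MBNL1 -0.01 ± 0.06, none of them called. TFAP2C lost its call with PNA-10b+21 replicate 2 left out. KLF4 lost its call with control replicate 1 or PNA-10b+21 replicate 1 left out, without the filter on low counts and under DESeq2. BCL2L11 lost its call with PNA-10b+21 replicate 3 left out and under DESeq2. For miR-10b targets, the 4 lower became 2 under DESeq2. Of 18 tested HOX genes 0 were called in either direction in edgeR, with the most abundant, HOXB2 and HOXB3, at 0.01 ± 0.11 and -0.05 ± 0.11. The proteins that make and carry microRNAs had 5 of 19 genes higher and 1 lower: AGO2 (0.23 ± 0.06), the Dicer partner TARBP2 (0.24 ± 0.07) and the exporter XPO5 (0.25 ± 0.07) rose, TNRC6C fell (-0.48 ± 0.12) and the helicase DDX5 (0.08 ± 0.05) was not called. For these proteins, the 5 higher became 3 with control replicate 1 or 3 or PNA-10b+21 replicate 2 left out, with upper-quartile scaling and under DESeq2 and 2 with PNA-10b+21 replicate 1 left out. TARBP2 lost its call with control replicate 3 left out. AGO2 lost its call with PNA-10b+21 replicate 1 left out.

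The labelled cell type was checked against markers. VIM, at 1975, 1709 and 1844 CPM in control, CD44, at 1445, 1457 and 1461 CPM, and CHI3L1, at 1508, 1145 and 1522 CPM, were high in untreated cells, and GFAP was at 4.89, 3.18 and 4.20 CPM. S100B, SOX2, ALDH1L1 and PROM1 did not pass the filter. Of 10 tested astroglial and glioma markers 3 fell and 0 rose: SLC1A3, GFAP (-1.09 ± 0.22) and CD44 (-0.13 ± 0.05). CD44 lost its call with control replicate 1, 2 or 3 or PNA-10b replicate 1 or 2 or PNA-21 replicate 1 or PNA-10b+21 replicate 1 or 2 left out, without the filter on low counts and in a fit of the 6 libraries alone. Mesenchymal markers, which include the collagens COL1A1 and COL1A2 given above, had 9 of 11 lower. Their summed level was 5594 to 6421 CPM in control and 3443 to 4119 CPM in PNA-10b+21. COL1A1 and COL1A2 made up most of that sum, so it largely repeats their fall. In bulk RNA fewer cells of a kind and less RNA per cell cannot be told apart. The summed level of the 11 neuronal markers in the table, 5 of them tested and 3 lower, was 169 to 177 CPM and then 137 to 150.3 CPM. Of 9 myeloid markers in the table only CSF1R passed the filter, and it was lower (-0.59 ± 0.09). Endothelial markers summed to 12.8 to 15.2 CPM and 11.9 to 15.6 CPM, with 4 of 10 tested and 0 called in edgeR.

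The combined group was then set beside the groups with a single sgPNA, in the same fit. Against PNA-21, 0 of 15715 genes (0%) were higher and 0 (0%) lower by edgeR, and by DESeq2 the count was 0 as well. At an unadjusted p under 0.05, edgeR had 427 higher and 927 lower and DESeq2 231 and 713. The smallest adjusted p was 0.266 in edgeR and 0.126 in DESeq2. The 95% interval of the difference had a median width to either side of 0.18 on the log2 scale. It lay wholly within 0.5 log2 units of 0 for 11159 genes, 71.0% of those tested, so that for the other genes a difference beyond that size was not excluded. Of the 4243 genes called against control, 87.7% had an interval within that bound. BEX1 differed between PNA-10b+21 and PNA-21 by 0.08 (95% interval -0.11 to 0.28), IGFBP3 by -0.05 (95% interval -0.18 to 0.09) and COL1A2 by 0.03 (95% interval -0.13 to 0.18). CRABP2 was at 17.9, 18.6 and 16.7 CPM in PNA-21 and lower in PNA-10b+21, at 13.4, 15.3 and 14.9 CPM. Its difference was -0.29 (95% interval -0.48 to -0.09), an interval that leaves out 0, but it did not pass over all genes. The corresponding values were -0.18 (95% interval -0.36 to -0.00) for TMEM45A, 0.15 (95% interval 0.02 to 0.28) for DYNC1H1 and -0.37 (95% interval -0.81 to 0.06) for ANGPTL4. Without the filter on low counts, 32 genes were called higher and 300 lower, 312 of these 332 among the 15715.

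Set against PNA-10b, PNA-10b+21 had 724 genes higher (4.61%) and 801 lower (5.1%), 9.7% in either direction. IGFBP3 had the smallest adjusted p of the falls named here: it was at 659.8, 661 and 645 CPM in PNA-10b and 257, 269.6 and 244 CPM in PNA-10b+21 (-1.35 ± 0.07, adjusted p = 4.27e-11). ZP1 was at 37.6, 34.5 and 35.2 CPM and then 9.45, 11.8 and 14.4 CPM (-1.59 ± 0.12). For both genes the PNA-10b libraries stood at the level of the controls, and their changes against control were 0.07 ± 0.06 and -0.05 ± 0.11. The membrane mucin MUC1 (17.9, 15.6 and 20.6 CPM against 6.48, 8.001 and 8.92 CPM; -1.21 ± 0.12), the myeloid receptor TREM1 (-1.23 ± 0.14) and the metalloprotease ADAM28 (-1.29 ± 0.27) were also lower. Of the rises against PNA-10b, BEX1 was at 0.89 ± 0.10, the antisense gene PAX8-AS1 at 1.03 ± 0.13 and AC005077.4 at 0.77 ± 0.13. CHI3L1, a secreted chitinase-like protein of mesenchymal glioma, was at 897, 731 and 906 CPM in PNA-10b and 1493, 1648 and 1460.0 CPM in PNA-10b+21 (0.86 ± 0.12). Its level in the combined group overlapped control, and its change there was 0.14 ± 0.12 and not called. CHI3L1 passed against control without the filter on low counts. MMP1, an interstitial collagenase, likewise stood above PNA-10b and was not called against control (0.86 ± 0.18 against PNA-10b, 0.05 ± 0.17 against control). NR4A1, an orphan nuclear receptor of the immediate early class, was higher than in PNA-10b (0.75 ± 0.21) and lower than in control (-0.51 ± 0.18). Against control, NR4A1 lost its call with control replicate 1 or 3 or PNA-10b+21 replicate 1 or 2 left out. EIF3CL met the rule for falls but rested on uneven PNA-10b libraries of 102, 1.77 and 20.8 CPM, and it shares sequence with its paralog EIF3C. Without PNA-10b+21 replicate 1 the counts against PNA-10b dropped to 193 higher and 339 lower, and without replicate 2 to 374 and 491. Without PNA-10b replicate 2 or 3 the higher genes numbered 447 and 363.

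The 3 treated groups share the same control libraries, so their changes against control are given side by side. IL36B was at 0.72 ± 0.08 with sgPNA-10b alone, 0.99 ± 0.08 with sgPNA-21 alone and 1.07 ± 0.08 with both. COL3A1 was at -1.69 ± 0.17, -1.55 ± 0.17 and -1.60 ± 0.17 in the same order. For COL3A1 the 3 groups were alike within their errors, and for SYNPO they were not, at -0.13 ± 0.08, -1.20 ± 0.08 and -1.27 ± 0.08. The interaction term, which is the effect of adding sgPNA-21 to sgPNA-10b minus the effect of sgPNA-21 given alone, passed for 233 genes with a positive value (1.48%) and 258 with a negative value (1.64%), 3.12% in all. COL3A1 had an interaction of 1.64 ± 0.25 (adjusted p = 0.00399 in edgeR). It was lower than in control by more than 1 log2 unit in each single group, and the combined change lay between the 2 single ones. The interactions of FN1 (0.56 ± 0.12) and COL1A2 (0.53 ± 0.10) had the same sign. For IL36B the interaction was -0.64 ± 0.11, a smaller rise than the sum of the 2 single rises. Control had no nanoparticles, so their part in these values cannot be told apart from that of the sgPNAs. The interaction counts rested on single libraries: from 44 positive and 48 negative without PNA-10b replicate 2 to 451 and 577 without control replicate 2. They also moved by over 1.5 times without control replicate 1 or 3, PNA-10b replicate 1 or 3, PNA-21 replicate 2 or any PNA-10b+21 replicate.

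**Figure D5:**
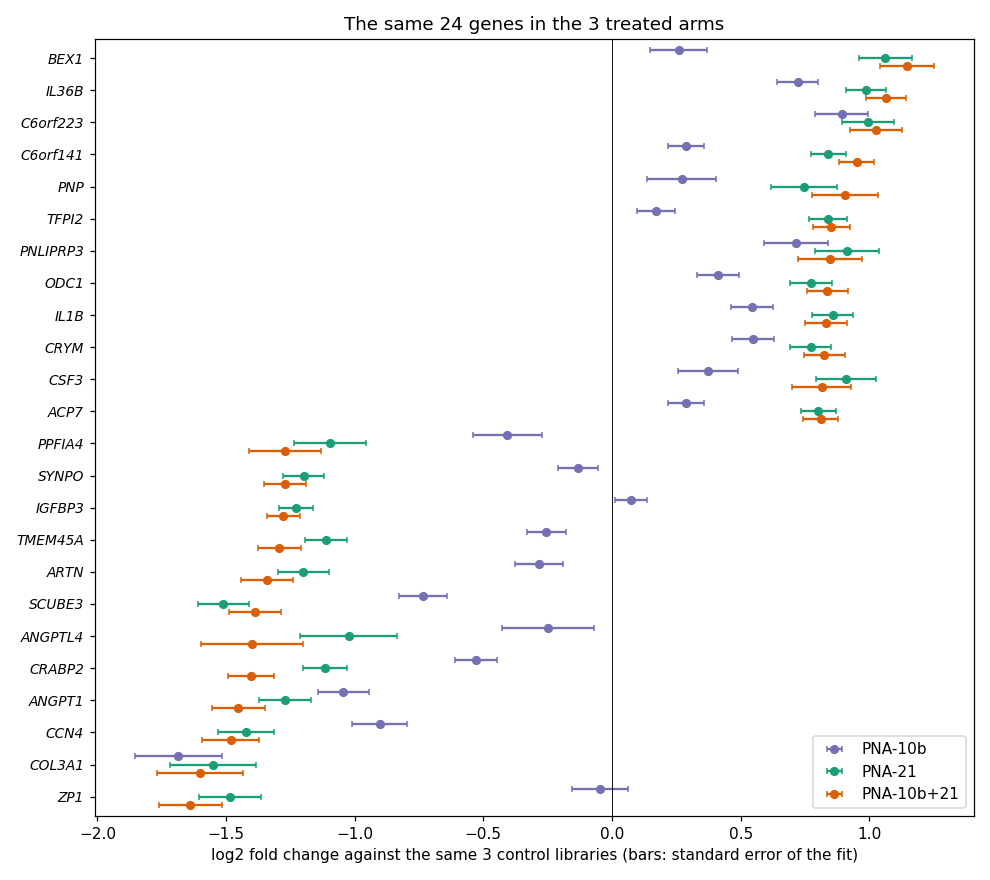
log2 fold change against the same 3 control libraries (x axis) in PNA-10b (purple), PNA-21 (green) and PNA-10b+21 (orange) for the 24 genes with the largest changes in PNA-10b+21, with bars for the standard error of the fit. The green and orange points lie close together for most genes; the purple points of IGFBP3, SYNPO and ZP1 lie near 0 and that of COL3A1 lies with the others.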

How the data were processed

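Polyadenylated RNA of U87 cells was sequenced in 12 libraries (TruSeq Stranded mRNA, per the labels' protocols). The authors' deposited file is a matrix of unnormalized read counts for 35741 Ensembl genes, whose 12 columns matched the samples by title. HISAT2 2.1.0, SAMtools 1.7, HTSeq 0.11.0 and the build hg38 are named in the submitters' processing notes. How strand was handled in counting, and which annotation was used, is not given in the sources used here. filterByExpr (edgeR 4.0.16, R 4.3.3, minimum count 10) kept 15715 genes with 99.8% of counts. The 12 libraries entered 1 quasi-likelihood fit with TMM scaling and a mean per group, and the common biological coefficient of variation was 0.0518. Adjusted p-values are Benjamini-Hochberg values from edgeR over all genes tested, and 95% intervals are the log2 difference with its SE times the t quantile of the fit's degrees of freedom. No 2 libraries of a group agreed within sampling noise.

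GENCODE 29 gave coordinates, gene types and 3′ UTRs, and 34564 genes matched it by identifier. RefSeq tables of GRCh38.p14 gave the microRNAs and promoter windows. The members, the 62 lists (1392 entries, 51 without a match in the table), the tests and the named-gene rule were chosen with earlier results of these data known. Against control, the rule took the 12 top rises and 12 top falls by log2 among called protein-coding genes with a mean of at least 4 log2 CPM and no overlap of libraries, the 6 largest rises and 6 largest falls in CPM, the 6 largest of each against the single groups (mean of at least 2 log2 CPM), up to 4 called members of each list by smallest p and up to 2 uncalled ones by level, and any reported target. Genes on the Y chromosome were not named, and a few other genes that the rule takes are not reported here. Alternatives were RLE and upper-quartile scaling, no filter, a minimum count of 50, the 6 libraries alone, a replicate block, DESeq2 1.42.0 and leaving out each library. The scripts were tested on simulated data.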

Additional observations from a re-analysis of the deposited data

Results flagged for a closer look

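For 14 of the 44 genes named by size of change, chosen partly on the libraries that enter this term, against 3.12% of all genes, the effect of sgPNA-21 differed by whether sgPNA-10b was also present (interaction term of the edgeR fit, adjusted p under 0.05 over all genes; 3 libraries in each of 4 groups). Negative values mean that the combined rise was smaller than the sum of the single rises: IL36B had an interaction of -0.64 ± 0.11, C6orf223 of -0.86 ± 0.14, PNLIPRP3 of -0.78 ± 0.17, IL1B of -0.57 ± 0.11 and CRYM of -0.49 ± 0.11. Positive values mean that the combined fall was smaller than the sum of the single falls. COL3A1 had 1.64 ± 0.25, CCN4 0.84 ± 0.16, ANGPT1 0.86 ± 0.15, SCUBE3 0.86 ± 0.15, FN1 0.56 ± 0.12, COL6A3 0.39 ± 0.10 and COL1A2 0.53 ± 0.10. Both single groups had lowered these 7 genes. CHI3L1 had 0.91 ± 0.17 and NR4A1 1.30 ± 0.27; in these 2 the level was lowest with sgPNA-10b alone. The nanoparticles were common to the 3 treated groups and absent from control, so their part in this term cannot be told apart from that of the sgPNAs. With 1 of the 12 libraries left out at a time, all 14 terms kept their sign in 12 of 12 fits. COL6A3 still passed in 4 of those fits, CRYM in 6, PNLIPRP3 in 8 and FN1 and NR4A1 in 10, and the other 9 genes passed in all 12.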

How the results depend on the processing

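Against control, PNA-10b+21 had 2131 genes higher and 2112 lower, 2142 and 2104 with RLE scaling, 1740 and 2471 with upper-quartile scaling, 2093 and 1933 without the filter on low counts, 1964 and 2135 at a minimum count of 50, 2139 and 2059 in the 6 libraries alone, and 1820 and 1767 by DESeq2. Leaving out 1 library gave 1334 to 2169 higher and 1414 to 2132 lower. Against PNA-21 the counts were 0 in every setting but 1: without the filter, 32 genes were higher and 300 lower. Against PNA-10b, leaving out 1 library gave 193 to 772 higher and 339 to 915 lower. The interaction counts of 233 and 258 became 350 and 724 without the filter, and 44 to 451 and 48 to 577 without 1 library; the cause was not tested. None of the named genes changed direction while called.

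Replicate numbers were not taken as pairs, since same-numbered libraries correlated at -0.0577 to 0.109 in their deviations. With a replicate block the counts against control were 2237 higher and 2170 lower, against PNA-21 0 and 0 (smallest adjusted p = 0.0502 in edgeR), against PNA-10b 837 and 869, and for the interaction 334 and 376. Of the named genes, CD44 lost its call with the block (adjusted p = 0.0621 in edgeR) and GMNN, NEK2, SUCLG2, TCOF1 and GARS gained one. Genes under about 1 CPM, such as HOXD10, have intervals too wide at this depth to show a moderate change.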
